A study of Mus musculus with 4 samples.

Results

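The genes described here encode 10 SR splicing factors of the mouse (Srsf1 to Srsf7, Srsf9, Srsf10 and Srsf11), set against the places in the genome where FLAG-tagged MIXL1 was found by ChIP-seq. A peak was counted for a gene when it lay within 100 kb of the gene's span, and the distance was taken from the nearest edge of the peak. The genes were chosen by their peaks, since many of them had one in an earlier pass over the same list, so their peak counts are a description and no test was run on them. They are 10 of 21523 protein-coding genes, and 22 of the 9403 peaks on the assembled chromosomes with peaks lay near them.

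The cells were mouse epiblast stem cells (EpiSC), pluripotent cells that resemble the epiblast of the implanted embryo, carrying an inducible Mixl1 gene with a FLAG tag. Routine culture was on irradiated mouse embryonic fibroblasts, and the medium held bFGF at 10 ng/mL and activin A at 20 ng/mL. Embryoid bodies were then differentiated in serum for 2 days, the last 24 h with doxycycline at 1 µg/mL. All 4 libraries came from such induced cells, 2 from ChIP with the FLAG M2 antibody and 2 from input chromatin, and the label text does not say whether the replicates are separate clones or cultures. The authors deposited 1 list of peak positions on mm10 for the 4 libraries together, with no score or height, so no value below has a replicate error, the depth is unknown, and the tag and the induced level of MIXL1 are shared by every peak. Positions give no RNA level, so neither the cell type nor the expression of any gene could be checked.

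SR proteins bind pre-mRNA through RNA recognition motifs and recruit the splicing machinery through a tail rich in arginine and serine. Kinases of the SRPK and CLK families phosphorylate that tail, and the import receptor encoded by Tnpo3 carries the proteins into the nucleus. SR proteins act in constitutive and alternative splicing, and several also help to export mRNA. MIXL1, a homeodomain protein of the primitive streak, belongs to a class whose DNA sites are built from the core TAAT, singly or as facing pairs.

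None of the 22 peaks overlapped a promoter window of an SR gene or of any other gene in the RefSeq table. A window was taken as 250 bases before to 50 bases after a listed start of transcription. Among all protein-coding genes with a listed start, 3.16% had a peak within 1 kb of one. That share counts genes and not peaks, so it is no counterpart of the count of peaks in windows. The share of all peaks that overlap a promoter window was not analysed here, so nothing is read from the absence among the 22. The promoters are shown because theirs was the sequence used here, while that of the peaks was not. No link between a TAAT core in a promoter and the distance of the nearest peak was tested. The following are the 250 bases before the start site on the strand of the gene, from RefSeq's GRCm38.p6 table, with the core TAAT or its reverse complement ATTA in capitals. Srsf3 and Srsf9 had the nearest peaks upstream of their starts, and these stretches hold no core. Srsf5, Srsf6 and Srsf11 are the genes with a core in this stretch.
Srsf3, chr17:29032410-29032659, plus strand: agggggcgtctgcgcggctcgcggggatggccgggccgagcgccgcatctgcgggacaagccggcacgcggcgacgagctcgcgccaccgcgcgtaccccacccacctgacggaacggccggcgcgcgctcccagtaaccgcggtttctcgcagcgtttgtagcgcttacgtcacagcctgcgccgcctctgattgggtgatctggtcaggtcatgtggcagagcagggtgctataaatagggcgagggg
Srsf9, chr5:115326927-115327176, plus strand: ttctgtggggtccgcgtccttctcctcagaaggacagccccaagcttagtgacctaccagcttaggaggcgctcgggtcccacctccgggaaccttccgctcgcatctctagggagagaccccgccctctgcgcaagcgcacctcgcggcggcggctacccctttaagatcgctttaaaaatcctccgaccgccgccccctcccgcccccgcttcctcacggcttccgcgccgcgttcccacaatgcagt
Srsf5, chr12:80945249-80945498, plus strand: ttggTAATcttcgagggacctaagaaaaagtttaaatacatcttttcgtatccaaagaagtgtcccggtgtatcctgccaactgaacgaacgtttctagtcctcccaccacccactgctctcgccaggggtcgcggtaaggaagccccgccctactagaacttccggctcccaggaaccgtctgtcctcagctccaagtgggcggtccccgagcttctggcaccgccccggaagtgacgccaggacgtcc
Srsf6, chr2:162931258-162931507, plus strand: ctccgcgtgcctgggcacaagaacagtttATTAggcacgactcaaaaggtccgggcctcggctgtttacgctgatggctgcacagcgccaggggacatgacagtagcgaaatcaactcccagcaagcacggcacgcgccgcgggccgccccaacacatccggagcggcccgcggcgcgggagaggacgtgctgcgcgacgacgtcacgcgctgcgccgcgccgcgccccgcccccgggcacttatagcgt
Srsf11, chr3:158036607-158036856, minus strand: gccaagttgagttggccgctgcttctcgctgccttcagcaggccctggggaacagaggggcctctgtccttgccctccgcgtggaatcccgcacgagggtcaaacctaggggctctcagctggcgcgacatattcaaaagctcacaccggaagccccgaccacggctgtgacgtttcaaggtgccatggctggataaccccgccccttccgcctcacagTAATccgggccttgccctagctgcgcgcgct

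The table held 13 promoter windows of 300 bases for the 10 SR genes, with 3 windows for Srsf4, of which 2 overlap, and 2 for Srsf11. TAAT, searched on both strands as TAAT or ATTA, occurred in 4 of the 13 windows, 1 each at Srsf4, Srsf5, Srsf6 and Srsf11. It occurred in 58.0% of all 32851 windows of the table. The SR windows were rich in G and C, with 56.0 to 78.3% and a median of 69.0%, against a median of 52.7% over all windows. Among the 12723 windows within the SR genes' range of GC content, 29.5% held TAAT. A pair of facing cores (TAAT, then any 2 or 3 bases, then ATTA), which reads the same on both strands and contains TAAT, was in 0 of 13 SR windows. It was in 0.39% of all windows with 2 bases between and in 0.487% with 3, and in 0.0393% and 0.134% of those within the SR genes' GC range, in the same order. CCAAT, counted for comparison (searched as CCAAT or ATTGG), was in 4 of 13 SR windows, 37.4% of all windows and 34.3% of those within that GC range. These matches are letters in a window and do not show a bound site. The nearest peaks of the 4 genes with a core lay at 0 kb (Srsf4), 19.1 kb (Srsf5), 94.8 kb (Srsf6) and 971 kb (Srsf11), and those of the 6 genes without one at 7.11 to 230 kb.

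Most SR genes had FLAG-MIXL1 peaks in their neighbourhood. None had a peak within 1 kb of a listed start site, where 3.16% of the protein-coding genes with a listed start had one. Of the 10 genes, 8 had at least 1 peak within 100 kb, against 52.8% of all protein-coding genes. The share was 53.8% among the 9862 protein-coding genes whose spans were as long as those of the SR genes (3779 to 28196 bp), and also 53.8% among genes with as many protein-coding neighbours within 100 kb (3 to 8). The chromosomes of the SR genes differed in this share, which was 44.9% on chromosome 2 (Srsf6), 51.9% on chromosome 3 (Srsf11), 53.7% on chromosome 5 (Srsf9), 59.6% on chromosome 4 (Srsf4 and Srsf10), 66.1% on chromosome 11 (Srsf1 and Srsf2), 67.4% on chromosome 17 (Srsf3 and Srsf7) and 91.2% on chromosome 12 (Srsf5). Averaged over the SR genes, the share on the own chromosome was 62.8%. Because the genes were picked with their peaks known, nothing is read from the gap between 8 of 10 and these shares.

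**Figure D1:**
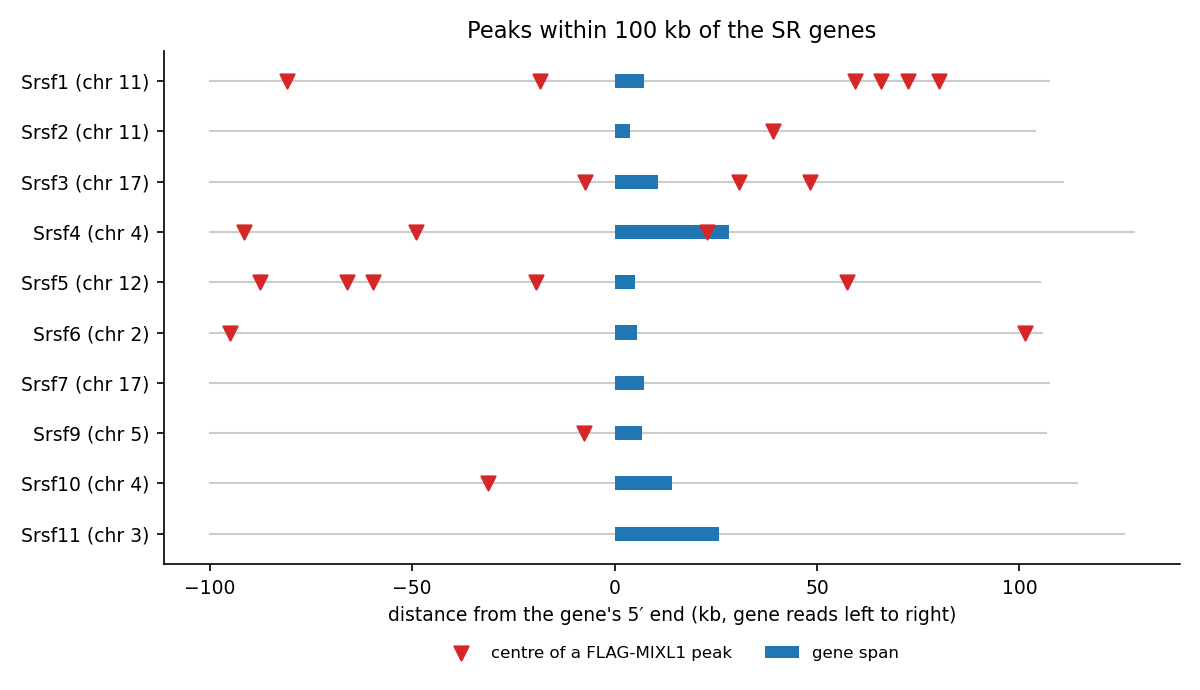
Position of the 22 FLAG-MIXL1 peaks (triangles, peak centres) around the 10 SR genes (bars, gene spans to scale), in kb from the 5′ end of each span, with each gene reading left to right and the grey line marking 100 kb on both sides. One triangle lies on a gene span, that of Srsf4, and the lines of Srsf7 and Srsf11 carry none.

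Srsf1, which encodes the founding member of the family, had the most peaks, with 6 within 100 kb. At least 6 peaks were found for 2.41% of all protein-coding genes. The gene lies at chr11:88046499-88053757 on the plus strand. Its nearest peak, at chr11:88027368-88028727, lay 17.8 kb upstream of the span and was 1360 bp wide, wider than 94.3% of all peaks. Srsf1 was the nearest protein-coding gene to this peak. A further upstream peak at chr11:87965187-87965723 lay 80.8 kb away and nearer to Dynll2, a dynein light chain gene. The other 4 peaks lay in a row inside the neighbouring gene Cuedc1, from 51.9 to 72.5 kb downstream of Srsf1, each within 7.11 kb of the next. The count of 6 thus rests mainly on a cluster inside another gene, and 5 of the 6 peaks also lay within 100 kb of Vezf1, a zinc finger transcription factor gene 14.4 kb from Srsf1.

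Srsf3 and Srsf7 encode short SR proteins that also serve as adaptors for mRNA export, and they differed widely here. Srsf3 (chr17:29032660-29043372, plus strand) had 3 peaks, a number reached or passed by 13.7% of protein-coding genes. The nearest, at chr17:29025129-29025497, was 369 bp wide and lay 7.16 kb upstream, within the lncRNA gene Gm16196. The next, at chr17:29063185-29063823, lay 19.8 kb downstream inside Trp53cor1, the gene of a long noncoding RNA of the p53 response, and the last, at chr17:29080858-29081109, lay 37.5 kb downstream and 9.87 kb from the cell cycle inhibitor gene Cdkn1a. All 3 also lay within 100 kb of Cdkn1a and of the kinase gene Stk38. Srsf7 (chr17:80200080-80207369, minus strand), 51.2 Mb away on the same chromosome, had none within 100 kb. Its nearest peak, at chr17:79969409-79969976, was 230 kb downstream, and 73.7% of protein-coding genes had a nearer one. The surroundings of Srsf3 are dense, since the 1-Mb window that holds its peaks has 32 in all. With windows of 20 or more peaks left out, the nearest peak of Srsf3 was 244 kb away.

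Srsf2, the gene of a nuclear SR protein that marks splicing speckles, lies on the minus strand at chr11:116849897-116853675 and is the shortest of the spans. It had 1 peak, at chr11:116814418-116814801, 35.1 kb downstream and inside Mxra7. Within 250 kb there were 7 peaks, none of them shared with Srsf1, which is 28.8 Mb away.

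Srsf4, Srsf5 and Srsf6 encode related SR proteins. Srsf4 (chr4:131873530-131901725, plus strand) was the only member with a peak inside its span, against 12.6% of all protein-coding genes and 6.29% of those with like spans. This peak, at chr4:131896070-131896651, was 582 bp wide and lay 22.0 kb beyond the nearest listed start and 5.07 kb before the end of the gene. Whether it touches an exon was not analysed here. The other 2 peaks of Srsf4 lay 48.8 and 91.3 kb upstream, both inside Ptpru, a receptor tyrosine phosphatase gene.

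Srsf5 (chr12:80945495-80950507, plus strand) had 5 peaks, a number reached or passed by 3.84% of protein-coding genes. Of these, 4 were upstream, at 19.1, 59.6, 66.0 and 86.9 kb, and 1 was downstream at 52.2 kb. The nearest, at chr12:80926032-80926356, was 325 bp wide and had Srsf5 as its nearest protein-coding gene. The farthest, at chr12:80857071-80858638, lay inside Susd6 and was the widest of the 22 at 1568 bp, while the peak at chr12:80885696-80885937 was the narrowest at 242 bp. Chromosome 12 carried 1541 peaks, more than any other chromosome, and 58.4% of its protein-coding genes had a peak nearer than that of Srsf5, against 24.3% over all chromosomes. Of its 5 peaks, 4 lay in a 1-Mb window of 36, and with windows of 20 or more peaks left out Srsf5 had 1 peak, at 52.2 kb. Srsf6 (chr2:162931508-162937121, plus strand) had 2 peaks just within the limit, 94.8 kb upstream at chr2:162836324-162836663 and 95.6 kb downstream inside Ift52, a gene of intraflagellar transport. No other peak lay within 250 kb, and 51.5% of protein-coding genes had a nearer one.

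Srsf9, which encodes one of the smaller SR proteins, lies at chr5:115327163-115333843 on the plus strand. Its only peak within 100 kb, at chr5:115319004-115320058, was 1055 bp wide, wider than 89.1% of all peaks. It lay 7.11 kb upstream in the lncRNA gene Gm13830, and Srsf9 was the nearest protein-coding gene. Of all protein-coding genes, 17.6% had a nearer peak, the same share as for Srsf3. Gatc, whose span overlaps that of Srsf9, had this peak within 100 kb too.

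Srsf10 and Srsf11 encode proteins that stand apart from the classical SR group, the first known as a splicing repressor when dephosphorylated. Srsf10 (chr4:135855752-135869908, plus strand) had 1 peak, at chr4:135824333-135824601, 31.2 kb upstream, 269 bp wide and 8.76 kb from the muscle gene Myom3. It shared no peak with Srsf4, which lies 3.95 Mb away. Srsf11 (chr3:158010915-158036667, minus strand) had no peak within 250 kb. Its nearest was 971 kb upstream at chr3:159008044-159008402, and 95.3% of protein-coding genes had a nearer one. Srsf12, a family gene outside the 10, resembled Srsf11, with its nearest peak at 607 kb.

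The distance of the nearest peak had a median of 25.1 kb over the 10 SR genes, with a range from overlap to 971 kb. The median was 89.3 kb over all protein-coding genes and 87.6 kb over those with like spans. With only the wider 50% of the peaks, the median was 98.0 kb over the SR genes and 210 kb over all protein-coding genes, and with the dense windows of 20 or more peaks per Mb left out it was 43.7 and 96.7 kb in the same order. By distance, 1 SR gene had a peak within 1 kb (13.7% of all protein-coding genes) and no more within 5 kb (16.3%), 3 within 10 kb (19.1%), 5 within 25 kb (27.2%), 7 within 50 kb (37.5%) and 9 within 250 kb (75.5%). Measured from listed start sites, 0 of the 10 had a peak within 5 kb (6.12% of the 17274 protein-coding genes with a listed start), 2 within 10 kb (9.47%), 5 within 25 kb (18.5%) and 8 within 100 kb (47.6%). Apart from the one inside Srsf4, the nearest peaks of these genes lay at 7.11 kb or more. The spans of all protein-coding genes were longer than those of the SR genes (medians 17374 and 7274.5 bp). The shares by distance were not adjusted for length. Around the limit of 100 kb, the last peaks counted were those of Srsf4 at 91.3 kb and of Srsf6 at 94.8 and 95.6 kb, and the first ones not counted were at 101 kb from Srsf5 and 104 kb from Srsf9.

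**Figure D2:**
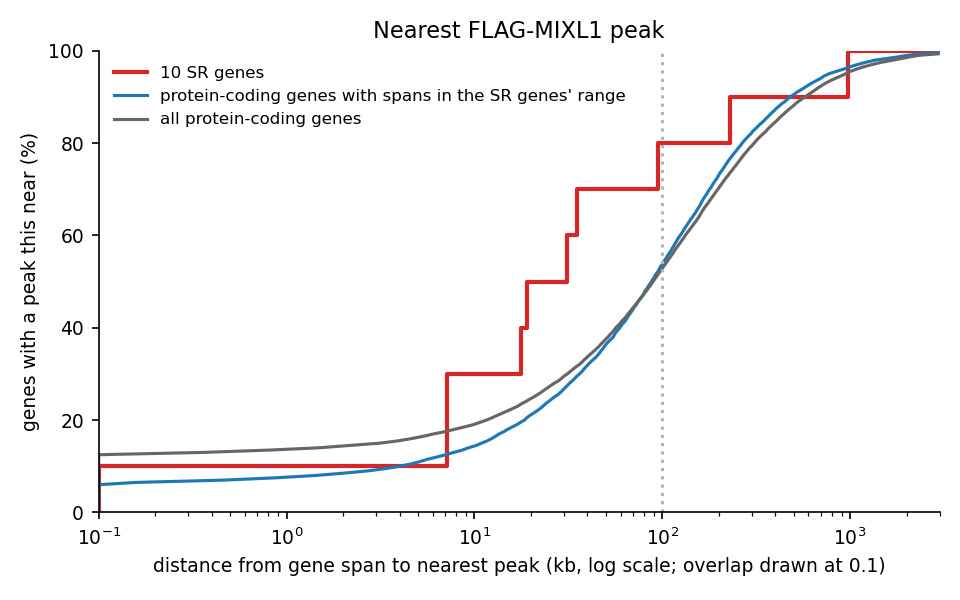
Share of genes (%) with a FLAG-MIXL1 peak nearer than the distance on the log axis (kb from the gene span, overlap drawn at 0.1) for the 10 SR genes (red), protein-coding genes with like spans (blue) and all protein-coding genes (grey). The red line reaches 80.0% at 100 kb (dotted), where the grey line is at 52.8%. At 5 kb the red line lies below the grey line and close to the blue line.

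Of the 22 peaks, 12 lay upstream of the SR gene, 1 inside it and 9 downstream. Over all pairs of a protein-coding gene with a listed strand and a peak within 100 kb, 40.9% were upstream, 17.3% inside and 41.8% downstream. These pairs cover genes of every length, and length was not adjusted for. A peak overlapped 12.6% of all protein-coding spans and 6.29% of those with like spans. The SR gene was the nearest protein-coding gene for 7 of the 22 peaks, which belonged to 6 genes (Srsf1, Srsf3, Srsf4, Srsf5, Srsf6 and Srsf9). Counted in this way, 20.9% of all protein-coding genes had a peak within 100 kb. The counterpart of 7 of 22 over all pairs was not analysed here. The other 15 peaks had another nearest gene, and 10 of those lay inside it (Cuedc1, Mxra7, Ptpru, Susd6 and Ift52). Outside all protein-coding spans were 11 peaks, among them those near Dynll2, Cdkn1a, Smoc1 and Myom3.

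The median width of the 22 peaks was 436 bp, with quartiles of 329 and 571 bp, against 485 bp with quartiles of 350 and 726 bp for all peaks. Peaks of 1 kb or more were 3 of 22 (13.6%), 1 each at Srsf1, Srsf5 and Srsf9, against 12.5% of all peaks. Another peak within 10 kb was present for 6 of the 22 (27.3%), against 30.3% of all peaks. In windows of 1 Mb with 20 or more peaks lay 7 of the 22 (31.8%), 3 at Srsf3 and 4 at Srsf5, against 16.0% of all peaks. None of these differences was tested.

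**Figure D3:**
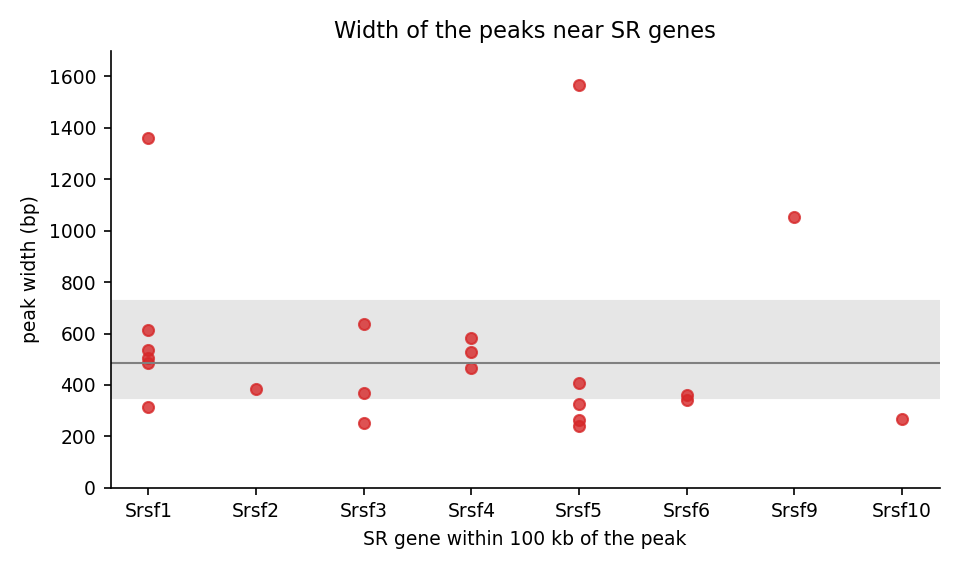
Width (bp) of each of the 22 peaks, by the SR gene within 100 kb, with the median (line, 485 bp) and quartiles (grey band, 350 to 726 bp) of all 9403 peaks. Single peaks at Srsf1, Srsf5 and Srsf9 exceed 1 kb, and the other 19 lie between 242 and 639 bp.

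Genes that act with the SR proteins were counted in the same way. The lists were drawn up from textbook knowledge, but with earlier results of these data known. Of 9 genes of SR kinases and nuclear import, 7 had a peak within 100 kb, against 52.8% of all protein-coding genes. The SR protein kinase gene Srpk2 had a peak inside its span of 181287 bp, Clk2 had one at 5.33 kb and Srpk1 one at 6.86 kb. Of 16 SR-like and SR-related genes, 8 had one, led by Srek1 with a peak inside the span, Pnn on chromosome 12 with one at 9.43 kb and Luc7l2 with one at 17.9 kb. Of 27 genes of hnRNP and PTB proteins, which often oppose SR proteins, 18 had one. Of 31 core spliceosome genes, 17 had one. Of 18 tissue-regulated splicing factor genes, 13 had one and 9 had a peak inside the span, among them Mbnl2, Rbfox1 and Rbfox3, where 12.6% of all protein-coding genes had one inside. Their median span was 128 kb, against 7.27 kb for the SR genes, and length was not adjusted for.

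Some genes of these lists had a peak at a listed start site. Within 1 kb of a start were peaks of 0 of 10 SR genes, 0 of 9 kinase and import genes, 0 of 16 SR-like and SR-related genes, 2 of 27 hnRNP and PTB genes, 3 of 31 core spliceosome genes and 1 of 18 tissue-regulated genes, against 3.16% of protein-coding genes with a listed start. The 6 genes were Celf2 at 0.017 kb, a tissue-regulated factor gene named after its value was seen, Hnrnpa1 at 0.1 kb and Hnrnpa3 at 0.993 kb, both genes of abundant hnRNP proteins, and Snrnp200 at 0.02 kb, Snrpg at 0.498 kb and Prpf4 at 0.683 kb, genes of snRNP proteins. The difference between the lists was not tested.

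**Figure D4:**
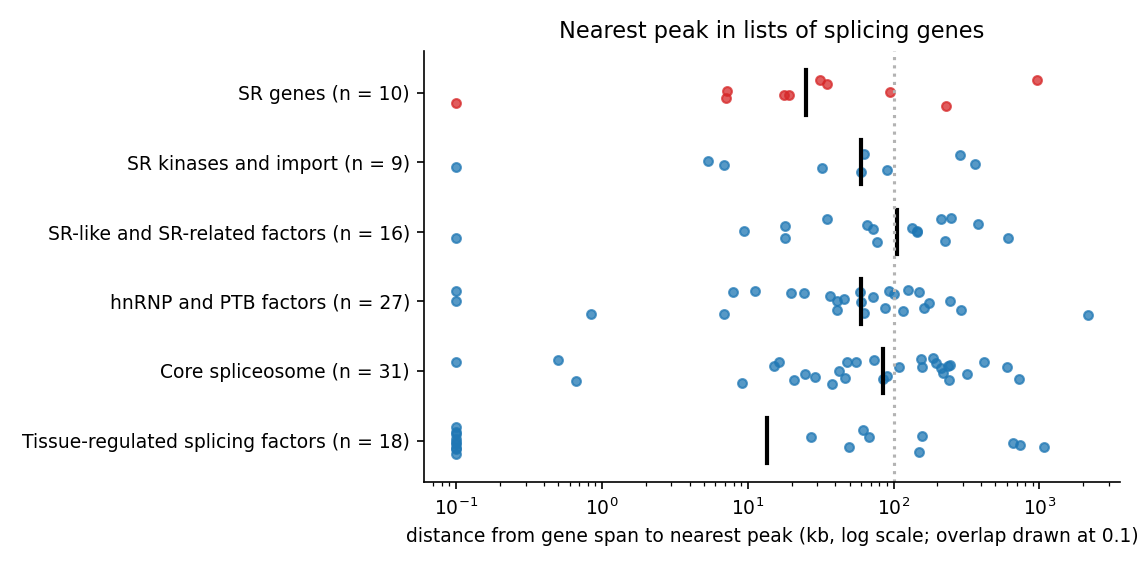
Distance (kb, log axis, overlap drawn at 0.1) from each gene span to its nearest FLAG-MIXL1 peak for the 10 SR genes (red) and 5 lists of other splicing genes (blue), with black bars at the medians and a dotted line at 100 kb. The SR genes have their median at 25.1 kb, the tissue-regulated factors at 13.6 kb and the remaining lists between 59.5 and 105 kb. Of the 18 tissue-regulated genes, 9 had a peak inside the span and the next had its nearest at 27.1 kb, so their median is a midpoint. Their median span was 128 kb, against 7.27 kb for the SR genes.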

How the data were processed

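FLAG-MIXL1 ChIP-seq of induced epiblast stem cells gave 2 FLAG and 2 input libraries. The submitters' processing notes name MACS2, Bowtie2, SAMtools and CASAVA 1.8.2, and the build mm10. The deposited list gives the chromosome, start and end of each peak, without score. The threshold for peaks, any pooling and the role of the inputs were not given in the sources used here.

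Peaks were set against RefSeq gene spans of GRCm38.p6, the assembly behind mm10. Chromosome Y, which carried no listed peak, and 340 genes listed within the first 3 Mb of a chromosome, where scaffold genes are also placed, were left out. Strand and start sites came from RefSeq promoter windows, found for 17274 of 21523 protein-coding genes and all 10 SR genes. Genome sequence of the peaks was not used here.

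The members and the gene lists were chosen with earlier results of these data known. Genes named are the 10 SR genes, Srsf12, the 3 genes of each list with the nearest peaks, the gene nearest to each peak and neighbours sharing peaks. No list was tested. Distances were tested on simulated data with planted peaks. Python 3.11.15, numpy 2.4.6, pandas 2.3.3 and matplotlib 3.10.9 were used. Alternatives changed the distance, the peak and gene points, the peaks and the background genes.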

Additional observations from a re-analysis of the deposited data

Results flagged for a closer look

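The list places 195 peaks on contigs outside the assembled chromosomes, which no count of SR genes uses. They appear here because they are signal outside the comparison with genes, and all 10 SR genes lie on assembled chromosomes.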

How the results depend on the processing

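No paired analysis was possible because the libraries enter only through 1 common list, so no replicate could be left out either. With the peak centre, either gene end or the listed start site in place of the nearest edge and the span, 8 SR genes had a peak. The share of protein-coding genes was 52.7% with the peak centre, 52.4% with either gene end and 47.6% with the listed start site. Without chromosomes 12 and X there were 7 of the remaining 9, against 53.5% of protein-coding genes. The distance limit set the count most. For overlap, 1 kb and 5 kb there was 1 SR gene with 1 peak (12.6, 13.7 and 16.3% of all protein-coding genes), for 10 kb 3 genes with 3 peaks (19.1%), and for 25 kb 5 genes with 6 peaks (27.2%). Within 50 kb there were 10 peaks and within 250 kb 54. The wider 50% of the peaks gave 5 genes with 10 peaks against 32.2% of genes, and a median nearest distance of 98.0 kb. Srsf2, Srsf6 and Srsf10 then had none within 100 kb. Without windows of 20 or more peaks, there were 7 genes with 15 peaks against 50.8% of genes, and the median was 43.7 kb. Srsf3 then had none within 100 kb, and Srsf5 had 1, at 52.2 kb. Counting a peak only for its nearest gene gave 7 peaks at 6 SR genes, against 20.9% of genes. The cause of these shifts beyond the smaller number of peaks or distances was not tested. The paired motifs were in 0 SR promoter windows. Without scores or depth, weak and strong peaks cannot be told apart.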
